A study of Mus musculus with 4 samples.

Results

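The constitutive proteasome subunits were examined as 40 genes among the 27998 of the deposited gene list. They are the mouse symbols that begin with Psma, Psmb, Psmc, Psmd or Psme followed by a digit, without the inducible catalytic genes Psmb8, Psmb9 and Psmb10, and without pseudogene or clone symbols. A member also needed at least 100 UMIs over all barcodes, where a UMI (unique molecular identifier) counts 1 captured transcript. Of the 45 symbols that matched, 3 were the inducible catalytic genes and 2 fell under the minimum, Psma8 with 83 UMIs and Psmb11 with 7. The members with the fewest UMIs were Psmd5 with 2278 and Psme4 with 2641. The rule itself uses no difference between cells or tumours, but it was written with earlier results of these data known. Psme1 and Psme2, the interferon-inducible activator genes, were set against the other 38 members.

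The libraries held CD45+ cells from B16-F10 melanoma tumours, a transplantable line grown in C57BL/6 mice of the same strain. In the 2 libraries called S1 and S2 the tumours were Adar1 null, and in S3 and S4 they were control tumours of the same line. Both groups had been implanted with the same number of cells in matrigel and were taken on day 14. Digested tumours went over an Optiprep gradient, CD45+ cells were selected with magnetic beads, and single-cell 3′ libraries (10x, version 2) were made. Adar1 is an enzyme that edits double-stranded RNA; the labels place its loss in the tumour and give no sex, age or clone. Whether both libraries of a group stem from different mice is not stated, and each p-value therefore reflects no more than library-to-library spread, which may be technical.

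The proteasome degrades proteins that carry ubiquitin chains. Its 20S core is a barrel with outer rings of alpha subunits (Psma genes) and inner rings of beta subunits (Psmb genes), of which Psmb5, Psmb6 and Psmb7 cut peptide bonds. The 19S cap recognises the ubiquitin chain and removes it, and its ring of ATPases (Psmc genes) unfolds the protein and threads it into the core. The non-ATPase subunits (Psmd genes) form the lid of the cap and, with the ATPases, its base. Interferon induces Psmb8, Psmb9 and Psmb10, which replace the 3 catalytic subunits in the immunoproteasome, and the PA28 activator of Psme1 and Psme2, which opens the core without ubiquitin and favours peptides for MHC class I. Psme3 encodes the nuclear activator PA28gamma and Psme4 the activator PA200. By role, the set held 7 alpha genes, 4 beta genes without a catalytic site, 3 catalytic genes, 6 ATPases, 11 non-ATPases, 3 assembly chaperones (Psmd5, Psmd9 and Psmd10) and 4 activators. Psme2b, an intronless copy of Psme2, and Psmc3ip, a recombination factor that is no proteasome subunit, completed the 40 by the rule.

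The 8838 barcodes included 8677 kept cells, and 38 barcode sequences occurred in more than 1 library. Classes were set by marker genes that were not members: 8111 cells (93.5%) entered a class, and 310 of them lay near the gate. That count leaves out closeness between the macrophage and monocyte lists, which were split without a margin. Macrophage-like cells numbered 807 to 1792 per library, melanoma-like cells 260 to 360, CD8 T cell-like cells 246 to 326 and monocyte-like cells 96 to 187, and these 4 classes were tested. The melanoma-like cells are tumour cells that passed the CD45 selection: Pmel, a melanosome gene, stood at 308 to 422 CPM (counts per 1000000 UMIs of the class) there and at 9.19 to 12.0 CPM in macrophage-like cells. Adar itself was at 9.62 and 12.9 CPM in the Adar1-null and 11.2 and 12.7 CPM in the control melanoma-like cells, and 3′ counts that may lie outside the altered part check nothing about its loss. Library S4 stood apart: 76.8% of its macrophage-like cells had a UMI of a resident macrophage marker against 33.6% to 52.8% elsewhere, and their Apoe was at 19605 CPM against 1340 to 4109 CPM. Such a UMI was also found in 46.9% of the melanoma-like cells of S4 against 3.46% to 22.7% elsewhere. In CD8 T cell-like cells the shares were 19.1% against 2.15% to 9.16%.

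Psme1 and Psme2 separated the classes far more than the core and cap subunits did. Their summed level was lowest in melanoma-like cells, with 95.6, 121, 131 and 76.5 CPM in S1 to S4. In CD8 T cell-like cells it was 867, 984, 839 and 744 CPM, in macrophage-like cells 962, 1414, 1038 and 591 CPM, and in monocyte-like cells 1375, 1613, 1435 and 860 CPM. Every melanoma-like value lay below every value of the other classes, while the ranges of the 3 leukocyte classes overlapped. Among classes too small to test, cDC1-like cells (21 to 33 cells per library) reached 1987, 1859, 1659 and 1511 CPM. Migratory dendritic cell-like cells (19 to 47 per library) were highest with 3008, 3511, 2697 and 2449 CPM. The pair's levels in regulatory T cell-like (1333, 1717, 1384 and 866 CPM) and cDC2-like cells (1402, 1278, 1332 and 1310 CPM) overlapped the monocyte-like range.

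The other 38 members, taken as a sum, moved over a narrower range than the pair. Single members ran further: the highest class mean was 33.0 times the lowest for Psmc3ip and 21.6 times for Psme2b. The sum of the 38 was 4736, 4632, 4393 and 4499 CPM in melanoma-like cells (4565 ± 150, SD, n = 4). It was 7153, 8179, 7295 and 5790 CPM in macrophage-like cells (7104 ± 987) and 6826, 7089, 6953 and 6464 CPM in CD8 T cell-like cells. In migratory dendritic cell-like cells, where the pair was highest, the sum was 5929, 7600, 6534 and 5219 CPM, below the macrophage-like sum of the same library in all 4. CPM is relative to all RNA of a cell, and melanoma-like cells were much deeper, with medians of 29321 to 34953 UMIs against 7141 to 8458.5 in macrophage-like cells. Per cell, the 38 members gave 137, 152, 150 and 164 UMIs in melanoma-like and 60.5, 69.0, 73.6 and 49.6 UMIs in macrophage-like cells. The pair was lower in melanoma-like cells on this scale as well, with 2.76, 3.97, 4.47 and 2.79 UMIs per cell against 8.15, 11.9, 10.5 and 5.06.

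**Figure D1:**
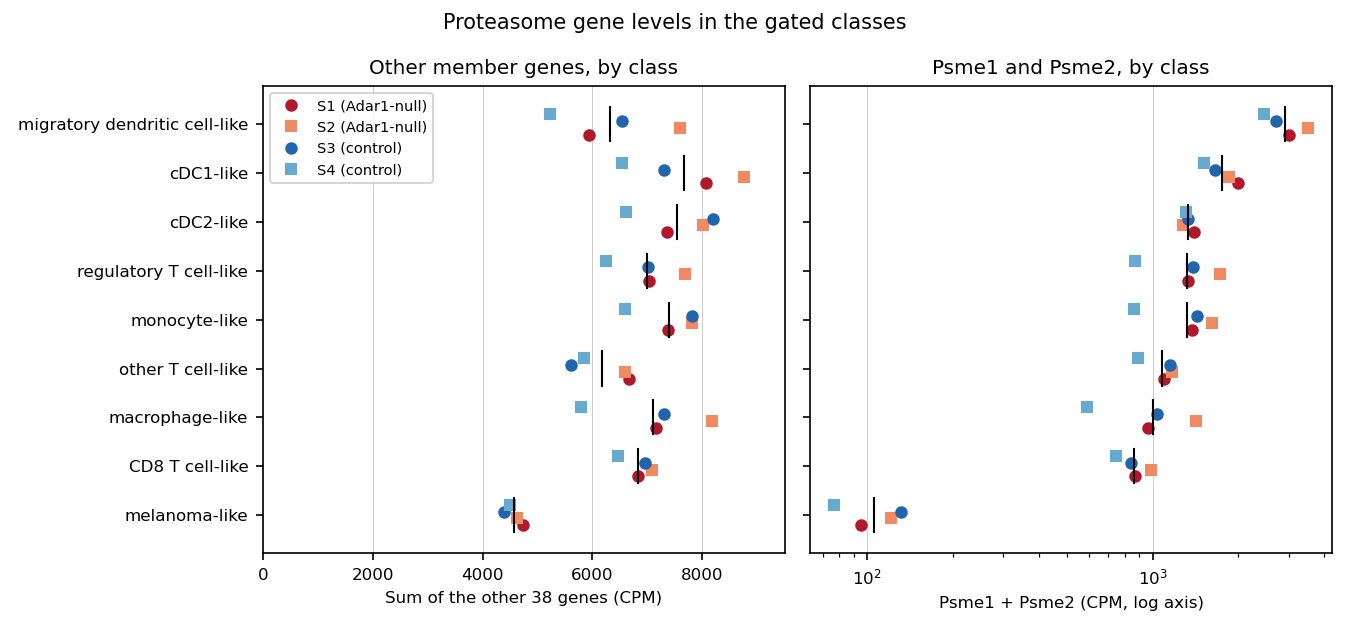
Level of the other 38 members (left, linear axis from 0) and of Psme1 plus Psme2 (right, log axis) in CPM, by gated class; each point is a library and each bar the mean of 4. The sum of the 38 members stays within 4393 to 8759 CPM in the classes named in the text. The pair runs from 76.5 CPM in melanoma-like to 3511 CPM in migratory dendritic cell-like cells.

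In the ratio of the pair to the other 38 members, taken within a class and library, the scaling to CPM cancels. In melanoma-like cells it was 0.020, 0.026, 0.030 and 0.017, and in macrophage-like cells 0.135, 0.173, 0.142 and 0.102. The melanoma-like ratio was lower in all 4 libraries, with a log2 difference of -2.57 ± 0.23 (mean and SD within libraries). The same difference was 1.77 ± 0.36 in migratory dendritic cell-like, 0.75 ± 0.37 in cDC1-like, 0.44 ± 0.05 in regulatory T cell-like and 0.36 ± 0.09 in monocyte-like cells, positive in each case in 4 of 4 libraries. Each of these had an exact two-sided sign-flip p of 0.125, the smallest that 4 libraries allow, so no such difference could pass 0.05. CD8 T cell-like cells did not separate from macrophage-like cells (-0.12 ± 0.22, exact p = 0.375).

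Psme1 (chr14:55578123-55581529, plus strand) and Psme2 (chr14:55587441-55591113, minus strand) lie close together on chromosome 14 of GRCm38, the assembly also called mm10. Their promoter sequences are shown because, among the genes of the core, the cap and the activators, this pair varied most between classes; both come from RefSeq (GRCm38.p6). The Psme1 sequence runs from 110 bases before the RefSeq start to 20 bases after it, and the Psme2 sequence covers the 130 bases before its RefSeq start. Both starts lie inside the gene spans given above, which come from GENCODE, and the printed Psme1 sequence lies wholly within its span. The interferon-stimulated response element was searched as GAAA, any 2 bases and GAAA on both strands of the 250 bases before and 50 bases after the start. In the Psme1 sequence the capitals mark the match, read on the opposite strand, and the Psme2 sequence holds none.
Psme1, chr14:55578384-55578513, plus strand: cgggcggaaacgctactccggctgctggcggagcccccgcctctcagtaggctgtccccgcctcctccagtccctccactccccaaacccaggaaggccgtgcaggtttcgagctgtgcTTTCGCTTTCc
Psme2, chr14:55591102-55591231, minus strand: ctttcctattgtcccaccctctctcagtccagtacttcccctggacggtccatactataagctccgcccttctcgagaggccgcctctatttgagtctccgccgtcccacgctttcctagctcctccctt
The same letters occurred in 4 of the 34 members that had a promoter entry (Psmb3, Psmd4, Psmd9 and Psme1). They occurred in 3.44% of 32851 promoter windows of this length. A member was counted once over all its windows and the share is per window, so these are not strictly alike. No match was found for the inducible catalytic genes. A gamma-activated site, TTCNNNGAA, occurred in Psmd2 among the members, in Psmb8 among the inducible genes, and in 8.30% of all windows. These matches are letters in a window and not shown to be bound.

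Psme2b (chr11:48945354-48946190) followed Psme2 at a lower level. It was at 5.58, 10.1, 10.8 and 6.57 CPM in melanoma-like and 72.6, 107, 73.0 and 40.7 CPM in macrophage-like cells. Its transcript was 99.3% identical to a Psme2 transcript over 716 aligned bases, against 64.2% between Psme1 and Psme2, and it overlaps the annotated genes Gm12185 and 9930111J21Rik1. Reads of Psme2 and Psme2b can therefore be assigned to the wrong copy, and the values of Psme2b are uncertain.

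The catalytic subunits showed the same order of classes as the activator pair at its ends. The summed UMIs of Psmb8, Psmb9 and Psmb10 over those of Psmb5, Psmb6 and Psmb7 gave 0.244, 0.373, 0.497 and 0.178 in melanoma-like cells, so the constitutive genes were in excess there. In macrophage-like cells the ratio was 1.45, 2.19, 1.79 and 1.25, and in CD8 T cell-like cells 2.39, 2.54, 2.53 and 2.33. The ratio was highest in migratory dendritic cell-like cells, at 4.67, 5.16, 5.25 and 6.03. Against macrophage-like cells of the same library, the log2 difference was -2.44 ± 0.42 in melanoma-like, 0.59 ± 0.30 in CD8 T cell-like and 0.63 ± 0.10 in monocyte-like cells, in the same direction in 4 of 4 libraries each, with the smallest possible exact sign-flip p of 0.125.

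Each inducible gene replaces a particular constitutive partner, and the pairs differed in how far they shifted. Psmb8 to Psmb5 (the chymotrypsin-like site) was 0.329, 0.670, 0.888 and 0.154 in melanoma-like cells and 3.57, 5.33, 3.96 and 2.80 in macrophage-like cells. Psmb9 to Psmb6 was lowest, with 0.082, 0.141, 0.244 and 0.033 in melanoma-like cells. Psmb10 to Psmb7 varied least among the melanoma-like libraries, with 0.401, 0.489, 0.595 and 0.404. In every melanoma-like library each of the 3 ratios was below 1. In CD8 T cell-like cells Psmb10 to Psmb7 ran against the summed ratio: it was below the macrophage-like value in 4 of 4 libraries (-0.48 ± 0.27), as it was in cDC1-like cells (-0.77 ± 0.40), while Psmb9 to Psmb6 was above it in 4 of 4 (1.12 ± 0.28 in CD8 T cell-like cells). The exact sign-flip p of each was 0.125, the smallest possible. Levels were not divided by transcript length, and 3′ tags of different genes may be captured unequally, so a ratio compares classes and does not count subunits.

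**Figure D2:**
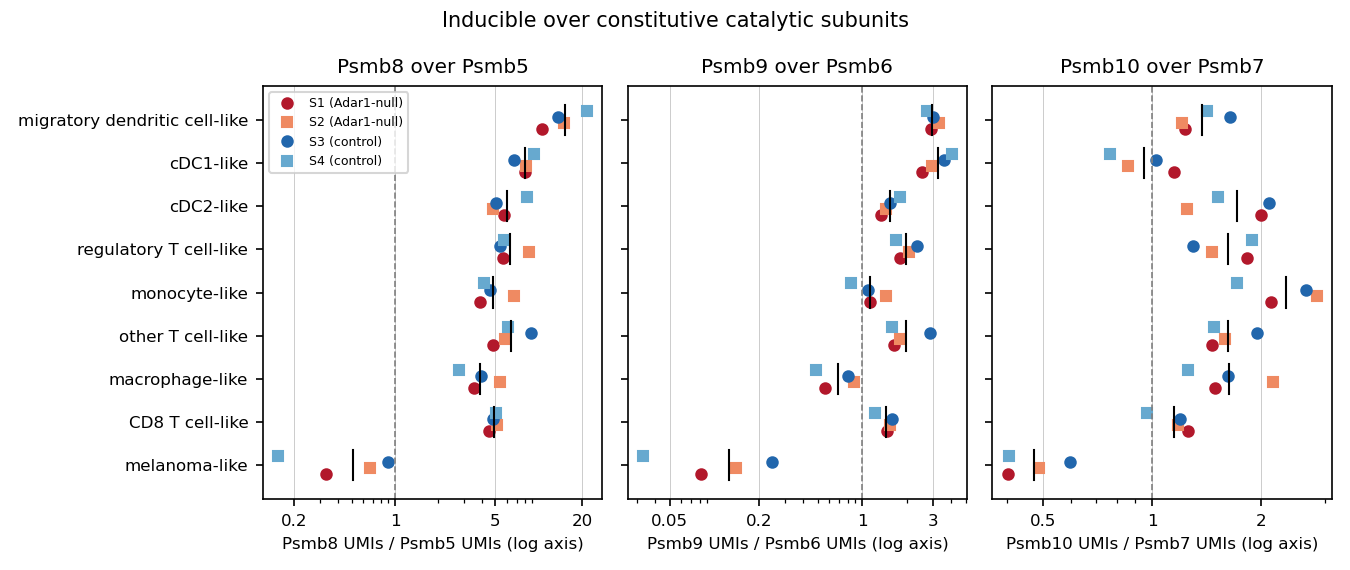
Ratios of summed UMIs of Psmb8 to Psmb5, Psmb9 to Psmb6 and Psmb10 to Psmb7 (log axes) by gated class; each point is a library and the dashed line marks a ratio of 1. Melanoma-like points lie below the line in all 3 panels, from 0.033 for Psmb9 to Psmb6 in S4 to 0.888 for Psmb8 to Psmb5 in S3.

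Gene by gene, most of the proteasome was lower in melanoma-like than in macrophage-like cells. With edgeR, 32 of 40 members were lower and 3 higher at an adjusted p below 0.05, where 35.8% of all 11816 genes tested were lower and 47.8% higher. The median member differed by -1.11 on the log2 scale and the median gene by 0.23. All 7 alpha genes (median -1.28), all 4 beta genes without a catalytic site (-1.27), all 3 catalytic genes (-1.59) and all 6 ATPases (-1.11) were lower. With library totals in place of TMM factors, which raised the median gene by 0.31, 30 members were lower and 6 higher, the added ones being Psmd1 (0.26), Psmd8 (0.29) and Psmd11 (0.38). Among cycling cells alone, 35 were lower and 3 higher, and with every cell thinned to 3900 UMIs, 33 were lower and 2 higher.

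In the core, Psma2 and Psma6 encode alpha subunits. Psma2 was at 133, 130, 115 and 115 CPM in melanoma-like and 349, 440, 359 and 285 CPM in macrophage-like cells, a log2 difference of -1.83 ± 0.08 (SE; edgeR adjusted p = 2.49e-16). Psma6 was at 119, 112, 102 and 114 CPM against 279, 346, 295 and 226 CPM, which gave -1.66 ± 0.10. Psma7, at the other end of the alpha genes, differed by -0.40 ± 0.08 with 568, 524, 512 and 518 CPM against 572, 680, 594 and 436 CPM. The 2 ranges of Psma7 overlapped, and with library totals its difference no longer passed (-0.09, edgeR adjusted p = 0.30).

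All 3 catalytic genes were lower relative to all RNA. Psmb5 was at 114, 96.7, 79.8 and 91.0 CPM in melanoma-like and 237, 247, 251 and 195 CPM in macrophage-like cells (-1.59 ± 0.09). Psmb6, the caspase-like site, was at 194, 190, 169 and 177 CPM against 579, 587, 514 and 403 CPM (-1.81 ± 0.09). Psmb7, the trypsin-like site, was at 138, 135, 118 and 123 CPM against 210, 242, 216 and 162 CPM (-0.99 ± 0.09). None of the 3 overlapped between the classes. Their inducible counterparts differed more, Psmb8 by -4.68 ± 0.34, Psmb9 by -4.41 ± 0.33 and Psmb10 by -2.77 ± 0.14.

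Among the 19S genes, the non-ATPases were the most uneven role. Of 11, 7 were lower and 4 did not pass, with differences of -0.05 (Psmd1), -0.14 (Psmd7), -0.02 (Psmd8) and 0.07 (Psmd11). Psmd6, a lid subunit, had the lowest relative level, with 32.4, 33.9, 27.5 and 30.4 CPM in melanoma-like and 101, 101, 103 and 82.6 CPM in macrophage-like cells (-1.95 ± 0.09, edgeR adjusted p = 1.54e-15). Psmd8, also of the lid, was at 432, 459, 459 and 472 CPM against 374, 358, 350 and 411 CPM. The ATPase Psmc2 was at 48.4, 51.1, 41.5 and 45.7 CPM against 117, 146, 122 and 83.2 CPM (-1.61 ± 0.10). The chaperone Psmd10, known as gankyrin, was at 14.1, 12.3, 12.4 and 13.6 CPM against 39.8, 44.7, 35.5 and 31.5 CPM (-1.82 ± 0.12), whereas the chaperone Psmd9 did not pass (-0.14 ± 0.09).

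Promoters of Psmb5 and Psmd6 are printed as those of a catalytic and a lid gene with large differences, both from RefSeq (GRCm38.p6) and covering the 130 bases before the annotated start. In Psmb5 the capitals mark TGACNNNGC, the antioxidant response element bound by the stress factors of the Nfe2l family, and in Psmd6 they mark CCGGAAG, the core of ETS factor sites.
Psmb5, chr14:54617996-54618125, minus strand: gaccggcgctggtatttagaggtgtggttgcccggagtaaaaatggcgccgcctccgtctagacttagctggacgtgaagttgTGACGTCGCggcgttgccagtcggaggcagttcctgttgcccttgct
Psmd6, chr14:14120946-14121075, minus strand: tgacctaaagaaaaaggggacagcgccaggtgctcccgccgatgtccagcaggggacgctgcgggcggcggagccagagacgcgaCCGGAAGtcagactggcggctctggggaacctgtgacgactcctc
On both strands, TGACNNNGC occurred in 6 of 34 members (Psmb5, Psmb6, Psmc6, Psmd9, Psmd12 and Psme4) and in 12.4% of all windows. CCGGAAG occurred in 13 of 34 members and in 8.86% of all windows. Here too members were counted by gene and the shares by window.

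The activators split in opposite directions. Psme1 was at 38.2, 47.4, 57.8 and 27.3 CPM in melanoma-like and 427, 640, 488 and 287 CPM in macrophage-like cells, and Psme2 at 57.4, 73.9, 73.3 and 49.2 CPM against 535, 774, 550 and 304 CPM. These were the largest differences among the members, -3.73 ± 0.12 for Psme1 (edgeR adjusted p = 6.07e-16) and -3.36 ± 0.13 for Psme2, beside -3.41 ± 0.16 for Psme2b. Psme3 instead was higher, at 121, 135, 129 and 130 CPM against 54.9, 63.5, 51.6 and 47.2 CPM (0.94 ± 0.09, edgeR adjusted p = 1.88e-09). Psme4, at 29.7, 30.9, 34.5 and 32.3 CPM against 22.6, 17.6, 20.4 and 23.5 CPM, passed narrowly (0.28 ± 0.11, edgeR adjusted p = 0.0258) and not with DESeq2 (0.27, adjusted p = 0.068) or thinned cells (0.10, edgeR adjusted p = 0.63). Psmc3ip, no subunit, was raised most, at 52.0, 51.1, 55.5 and 52.7 CPM against 9.53, 8.08, 11.3 and 8.14 CPM (2.21 ± 0.13). As a measure of macrophage RNA in the melanoma-like cells, C1qa, a macrophage gene, was at 28.1 to 57.9 CPM there and at 3638 to 4379 CPM in macrophage-like cells. Its part in the melanoma-like levels of the pair was not tested.

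**Figure D3:**
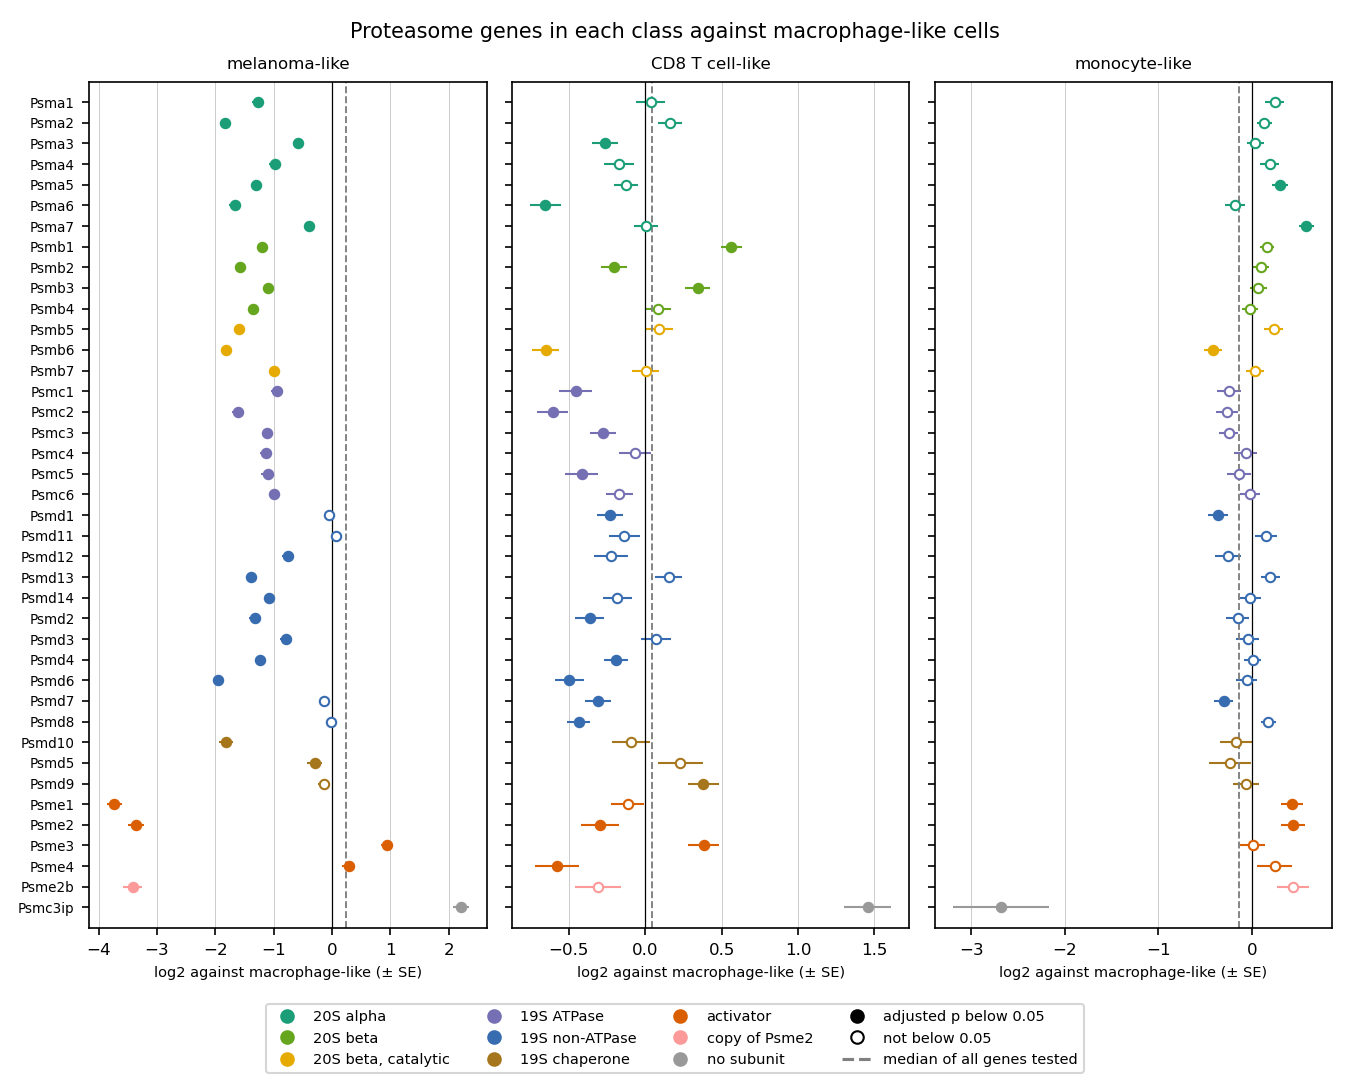
Log2 differences (edgeR, with SE bars) of the 40 members between each class and macrophage-like cells; filled points have an adjusted p below 0.05 and the dashed line is the median of all genes tested. In melanoma-like cells Psme1, Psme2 and Psme2b lie between -3.73 and -3.36, most core and cap genes between -1.95 and -0.30, and Psme3 and Psmc3ip above 0.

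CD8 T cell-like cells differed from macrophage-like cells by much less. Of the 40 members, 16 were lower and 5 higher, where 32.6% of all genes were lower and 36.1% higher. The median member differed by -0.17 and the median gene by 0.04. By role, 4 of 6 ATPases, 6 of 11 non-ATPases, 2 of 7 alpha genes and 1 of 3 catalytic genes were lower. The beta genes went both ways, with Psmb2 lower and Psmb1 and Psmb3 higher. Without S4, 27 members were lower, and without S1 or without S4, 3 were higher.

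Psmb1, a beta subunit without a catalytic site, was the subunit that stood highest in CD8 T cell-like cells, at 685, 660, 687 and 635 CPM against 437, 484, 446 and 383 CPM (0.56 ± 0.07, edgeR adjusted p = 1.43e-07). Psmb6 was at 325, 363, 337 and 336 CPM against 579, 587, 514 and 403 CPM (-0.65 ± 0.09), while Psmb5 (247, 261, 262 and 248 CPM; 0.09 ± 0.09) and Psmb7 (200, 217, 214 and 220 CPM; 0.00 ± 0.09) did not pass. Psma6 (-0.65 ± 0.10), Psmc2 (-0.61 ± 0.10), Psmd6 (-0.50 ± 0.10), Psmc1 (-0.46 ± 0.11), Psmd8 (-0.44 ± 0.07) and Psmc5 (-0.42 ± 0.11) were the further core and cap genes with the lowest relative levels. Psme3 was higher (76.7, 76.8, 65.4 and 72.6 CPM; 0.38 ± 0.10), as was Psmc3ip (23.1, 25.3, 27.8 and 28.2 CPM; 1.46 ± 0.15), and Psme4 was lower (13.1, 17.2, 12.6 and 15.0 CPM; -0.58 ± 0.15).

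The pair was close between both leukocyte classes. Psme1 was at 411, 511, 423 and 354 CPM in CD8 T cell-like cells, a difference of -0.12 ± 0.11 that did not pass (edgeR adjusted p = 0.361). Psme2 was at 455, 473, 415 and 390 CPM and was lower by edgeR (-0.30 ± 0.12, adjusted p = 0.0413). That call was lost with library totals (edgeR adjusted p = 0.083) and among cycling cells alone (edgeR adjusted p = 0.074).

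In monocyte-like cells, the nearest relatives of the macrophages, the share of members called was close to that of all genes. Of 40, 4 were higher and 4 lower, where 13% of all genes were higher and 15.5% lower, and the median member differed by -0.01 against -0.14 for all genes. Psma7 was at 951, 928, 820 and 677 CPM in monocyte-like cells, above the macrophage-like value of the same library in all 4 (0.58 ± 0.08, edgeR adjusted p = 6.52e-06). Psme1 (674, 712, 656 and 387 CPM; 0.43 ± 0.11, edgeR adjusted p = 0.00786) and Psme2 (701, 901, 779 and 474 CPM; 0.44 ± 0.13) were higher, as was the alpha gene Psma5 (0.30 ± 0.08). Psmb6 was lower (374, 380, 450 and 338 CPM; -0.42 ± 0.09), with Psmd1 (-0.36 ± 0.11) and Psmd7 (-0.30 ± 0.10), the last 2 of which were lost when cells were thinned. Psmc3ip was also called lower from only 0, 1, 3 and 0 UMIs. Without S3 the calls of Psme2 (0.34) and Psma5 (0.16) were lost, without S1 only 1 member was higher, and without S4 8 were lower.

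Across all 9 classes shown, several of them small, 26 of 40 members had their lowest mean CPM in melanoma-like cells. The share of all genes lowest there was not computed, so the count cannot be called particular to the members. The ratio of the highest to the lowest class mean ran from 1.59 for Psma7 to 33.0 for Psmc3ip, whose lowest mean rests on few UMIs. It was 31.4 for Psme1, 24.9 for Psme2 and 21.6 for Psme2b, and 6.09 for Psme3, which was highest in melanoma-like and lowest in migratory dendritic cell-like cells (22.3, 26.9, 18.5 and 16.9 CPM). For the core and cap genes it did not exceed 3.99, the value of Psmd3. Psme3 thus ran opposite to the pair at both ends of the class order. Its low end rests on 19 to 47 cells per library and low counts. Of these migratory dendritic cell-like cells 0% to 14.9% were cycling, against 96.8% to 96.9% of melanoma-like cells. The part of cycling in this order was not tested.

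Cycling cells, with at least 2 of 8 cell cycle genes detected, were compared with the other cells of the same class and library. In CD8 T cell-like cells, where 62.6% to 68.4% were cycling, 14 of 40 members were higher and 3 lower, where 15.1% of all genes were higher and 15.2% lower. The median member differed by 0.22 and the median gene by -0.04. Higher were all 3 catalytic genes, 3 of 7 alpha genes, 2 of 6 ATPases, 3 of 11 non-ATPases, Psmb2, Psme3 and Psmc3ip. Lower were Psme1, Psme2b and Psmb1. Cycling cells were also deeper, with medians of 9741 to 12113.5 UMIs against 5998 to 6836.5, and with cells thinned to 3900 UMIs 5 of 39 members were higher and 1 lower. Without S4, 9 members were higher, and without S2 1 was lower.

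Psme3 was at 84.2, 82.8, 69.8 and 84.9 CPM in cycling and 54.7, 54.1, 51.3 and 35.7 CPM in other CD8 T cell-like cells (0.65 ± 0.14, edgeR adjusted p = 0.000143). Psmb5 was at 269, 265, 289 and 270 CPM against 182, 246, 175 and 184 CPM (0.40 ± 0.09), and Psmd1, the large scaffold of the 19S base, at 81.6, 76.9, 71.8 and 75.8 CPM against 54.7, 54.1, 57.7 and 25.7 CPM (0.61 ± 0.15). All 3 were higher in the cycling cells of every library, and all 3 passed with thinned cells, but Psmd1 did not pass without S4 (0.41, edgeR adjusted p = 0.0506). Psmc1 (0.40 ± 0.15), Psmc4 (0.38 ± 0.12), Psmd7 (0.36 ± 0.11) and Psmd3 (0.33 ± 0.13) passed at full depth. Psme1 moved the other way, at 407, 481, 404 and 337 CPM in cycling against 426, 627, 486 and 405 CPM in other cells (-0.32 ± 0.07, edgeR adjusted p = 8.75e-05), and passed with thinned cells too (-0.25). Psme2 did not pass (-0.11 ± 0.07, edgeR adjusted p = 0.217). Psmc3ip was at 28.9, 29.1, 32.9 and 35.3 CPM against 6.08, 11.1, 11.2 and 7.15 CPM (1.74 ± 0.27).

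In macrophage-like cells, of which 16.4% to 26.5% were cycling, 7 members were higher and 6 lower, where 15.5% of all genes were higher and 18% lower. The median member differed by 0.06 and the median gene by -0.03. Psme3 was again higher, at 67.2, 78.7, 59.9 and 60.4 CPM against 48.0, 58.4, 46.4 and 42.9 CPM (0.31 ± 0.08), with Psmd5 (0.42 ± 0.12), Psmd12 (0.34 ± 0.08), Psmd1 (0.26 ± 0.09), Psma6 (0.22 ± 0.06), Psmd7 (0.19 ± 0.07) and Psmc3ip (2.13 ± 0.20). Lower were Psme4 (-0.45 ± 0.13), Psmd8 (-0.28 ± 0.07), Psme2b (-0.26 ± 0.09), Psme2 (-0.25 ± 0.08), Psme1 (-0.22 ± 0.07) and Psmd4 (-0.21 ± 0.07). In S4, 4 of the 6 ran the other way and were higher in cycling than in other macrophage-like cells: Psme1 (318 against 277 CPM), Psme2 (340 against 293 CPM), Psmd8 (435 against 403 CPM) and Psme2b (41.6 against 40.4 CPM). These 4 were lower in cycling cells in the other 3 libraries. With thinned cells, only Psmc3ip was higher (1.93), and Psmd8 and Psme2 were among 3 lower members. The counts moved when 1 library was left out: 0 members were lower without S1, 2 without S2 and 1 without S3, and 4 were higher without S1 and 3 without S3. Melanoma-like cells were nearly all cycling (96.8% to 96.9%), and their 8 to 11 other cells per library were too few for this comparison.

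**Figure D4:**
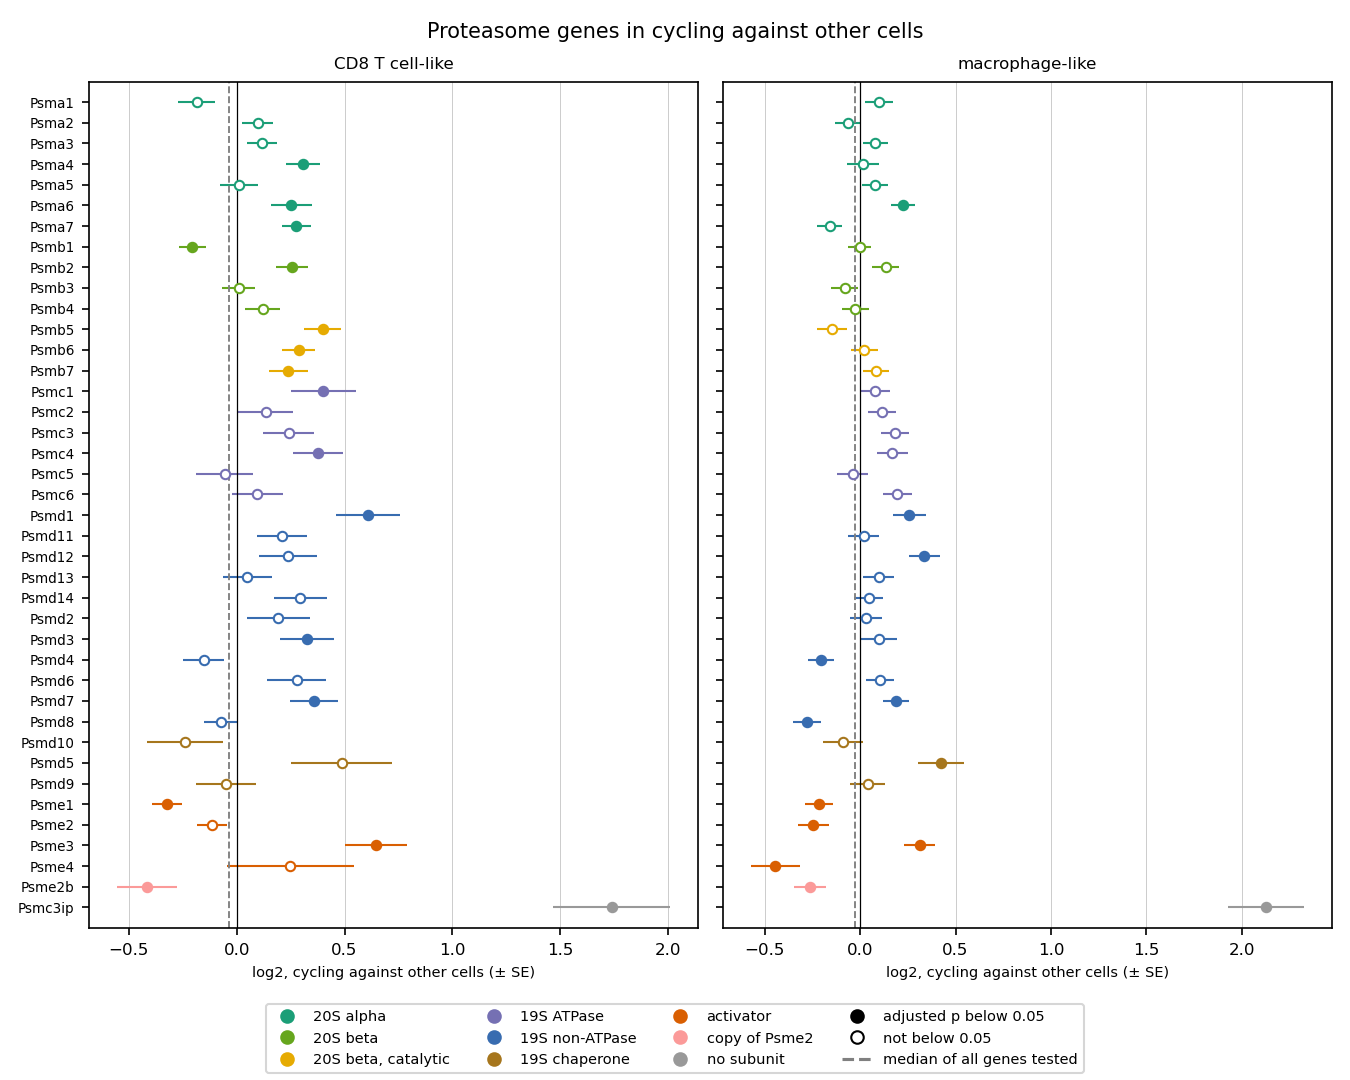
Log2 differences (edgeR, with SE bars) of the 40 members between cycling and other cells in CD8 T cell-like and macrophage-like cells; filled points have an adjusted p below 0.05 and the dashed line is the median of all genes tested. Psmc3ip is highest in both panels (1.74 and 2.13), Psme3 is above 0 and Psme1 below 0 in both.

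Between Adar1-null and control tumours, no member passed in any class. With edgeR, 0 of 40 members were called in all kept cells together or in macrophage-like, CD8 T cell-like or melanoma-like cells, and 0 of 39 in monocyte-like cells, where at most 0.0614% of all genes (melanoma-like) were called higher. Of all genes, 0.00877% were called lower in melanoma-like, 0.011% in CD8 T cell-like, 0.0179% in monocyte-like and 0% in macrophage-like cells and in all cells. At an unadjusted p below 0.05, 8 members were higher in melanoma-like cells and 1 in monocyte-like cells, and none in the other classes or in all cells. DESeq2 also called 0 members in each class, with 1 at an unadjusted p below 0.05 in melanoma-like cells. On data simulated with the same fixed spread for every gene, 95% of genes changed 2-fold were recovered in macrophage-like and in CD8 T cell-like cells. That spread was not estimated from these libraries, so smaller changes could be missed, and 2-fold changes too in genes that spread more.

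In melanoma-like cells, the cells that carried the genotype, no member passed the test, and most differences were small and positive (33 of 40). Both Adar1-null values lay above both control values for 24 of 40 members and below them for 2, where 17.3% of all genes tested were above and 14.4% below. The 24 included all 3 catalytic genes and all 6 ATPases, and the 2 were Psme4 and Psmc3ip. The median member differed by 0.08 and the median gene by -0.00. Psmb5 had the smallest p, at 114 and 96.7 CPM in the Adar1-null and 79.8 and 91.0 CPM in the control libraries (0.29 ± 0.09, unadjusted p = 0.00273, edgeR adjusted p = 0.444), followed by Psma2 (0.19 ± 0.07) and Psmb7 (0.17 ± 0.07). Psmb5 passed without the filter on low counts (edgeR adjusted p = 0.0277) and when S2 (0.41, edgeR adjusted p = 0.00632) or S4 (0.39, edgeR adjusted p = 0.0129) was left out. Leaving out a library reduces its group to 1 library, which is then assumed to vary like the other group, so these values are no support for a difference.

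The activator pair in melanoma-like cells spread more within the control group than the groups differed. Psme1 was at 38.2 and 47.4 CPM in the Adar1-null and at 57.8 and 27.3 CPM in the control libraries, which span the former (0.02 ± 0.54), and Psme2 at 57.4 and 73.9 against 73.3 and 49.2 CPM (0.10 ± 0.32). Which control library was kept set the sign: without S4 the difference of Psme1 was -0.45 (edgeR adjusted p = 0.0142), and without S3 it was 0.65 (edgeR adjusted p = 0.000863), each with 1 control library. The ratio of the pair to the other 38 members differed by 0.03 on the log2 scale (exact permutation p = 1), and that of inducible to constitutive catalytic genes by 0.02 (exact permutation p = 1). With 2 libraries against 2, the smallest possible p is 0.333.

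Macrophage-like cells had the highest median member difference, and no member passed. Of 40 members, 37 were positive, with a median of 0.24 against -0.00 for all genes. Psme2 was at 535 and 774 CPM in the Adar1-null and 550 and 304 CPM in the control libraries (0.62 ± 0.33, edgeR adjusted p = 0.833), and Psme1 at 427 and 640 against 488 and 287 CPM (0.46 ± 0.32). S2 was the highest and S4 the lowest library for both, and S1 and S3 lay between them, close together. Among the others, Psmc6 (0.35 ± 0.16), Psmb6 (0.34 ± 0.18) and Psmd10 (0.33 ± 0.15) had the smallest p. Both Adar1-null values lay above both control values for 9 members and below for 0, where 17.2% and 18.5% of all genes did so. Without S4 the median member differed by 0.08, and without S3 by 0.40.

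The share of cells with a resident macrophage marker was lowest in S2 and highest in S4, the libraries with the highest and lowest levels of the pair. S1 had a lower share than S3 and also lower levels. The part of this share in the levels was not tested. Cells with a UMI of a resident marker made up 43.9%, 33.6%, 52.8% and 76.8% of macrophage-like cells in S1 to S4. In each library, Psme1 was lower in cells with such a marker, at 388 against 464 CPM in S1, 591 against 669 CPM in S2, 461 against 522 CPM in S3 and 269 against 354 CPM in S4. Cells without a marker ran from 354 CPM in S4 to 669 CPM in S2. Among them the median member difference between groups was 0.14, with 35 of 40 positive and 0 called by edgeR. The whole macrophage list summed to 16460, 16530, 18548 and 36064 CPM, with none of its 10 genes at 0, and its part in the group values was not tested. Melanoma-like cells also held a UMI of a resident marker, in 17.8%, 3.46%, 22.7% and 46.9% of cells in S1 to S4, the same order of libraries. The part of RNA from other cells in these shares was not tested.

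**Figure D5:**
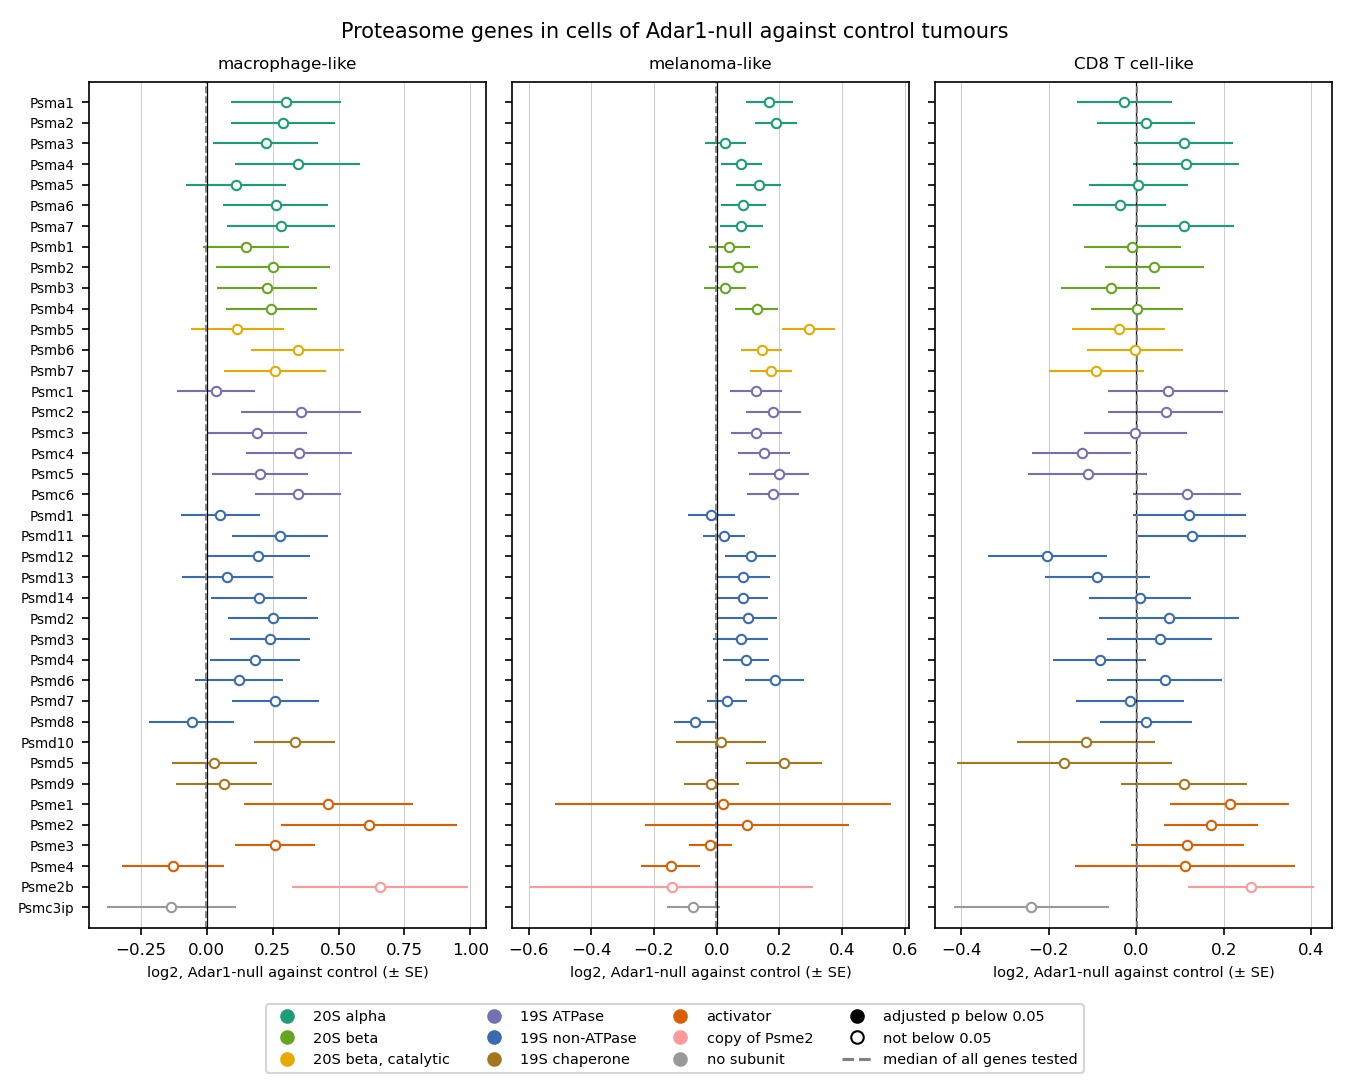
Log2 differences (edgeR, with SE bars) of the 40 members between Adar1-null and control libraries, by class (macrophage-like, melanoma-like, CD8 T cell-like); the dashed line is the median of all genes tested. No point is filled, since none has an adjusted p below 0.05, and the macrophage-like members centre on 0.24.

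CD8 T cell-like cells showed a median member difference of 0.02 against 0.00 for all genes. Their pair was at 867 and 984 CPM in the Adar1-null and 839 and 744 CPM in the control libraries, with Psme1 at 0.21 ± 0.14 and Psme2 at 0.17 ± 0.11. Psme2b differed by 0.26 ± 0.14. Both Adar1-null values lay above both control values for 13 members and below for 4, where 21.8% and 14.1% of all genes did so. The ratio of the pair to the other 38 members differed by 0.17 (exact permutation p = 0.333, the smallest possible). In monocyte-like cells it differed by 0.34 (exact permutation p = 0.333), with Psme2b at 0.73 ± 0.29, Psme1 at 0.39 ± 0.23, Psme2 at 0.33 ± 0.24 and Psma7 at 0.30 ± 0.19. There 8 of 39 members lay above and 4 below, where 17.6% and 14.9% of all genes did so.

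In all kept cells together, Psme1 was at 289 and 400 CPM in the Adar1-null and 358 and 225 CPM in the control libraries (0.18 ± 0.29), and Psme2 at 340 and 458 against 382 and 238 CPM (0.30 ± 0.29). Psmb5 (186 and 192 against 192 and 164 CPM), Psmb6 (350 and 362 against 354 and 309 CPM), Psmb7 (174 and 195 against 179 and 154 CPM) and Psme4 (24.6 and 23.5 against 24.2 and 25.2 CPM) overlapped between the groups. Psme3, at 86.7 and 94.1 against 79.7 and 80.0 CPM (0.11 ± 0.08), did not overlap. It was among 7 members with both Adar1-null values above both control values, where 34.2% of all genes were. Psmc6 (0.14 ± 0.08) and Psma7 (0.14 ± 0.11) were the others with the smallest p. All kept cells mix the classes. Melanoma-like cells, where Psme3 was highest, made up 18.3% and 14.8% of the Adar1-null and 13.3% and 11.1% of the control libraries. The part of class make-up in these values was not tested.

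Whether the group difference itself differed between classes was tested by an interaction term, with libraries as blocks. Against macrophage-like cells, 0 of 40 members were called by edgeR in CD8 T cell-like cells, where 0.00907% of all genes were called in each direction, and 0 in melanoma-like cells, where 0% were. At an unadjusted p below 0.05, 1 and 2 members were lower. DESeq2 was not run for this test. In melanoma-like cells the largest values were those of Psme2b (-0.84 ± 0.21), Psme2 (-0.54 ± 0.18, edgeR adjusted p = 0.976) and Psme1 (-0.39 ± 0.19). In CD8 T cell-like cells Psmc4 (-0.47 ± 0.20), Psmb6 (-0.36 ± 0.18) and Psmd10 (-0.45 ± 0.23) had the smallest p, beside Psme2 (-0.48 ± 0.26) and Psme1 (-0.27 ± 0.19). Without S3, where S4 alone stands for the control group and is assumed to vary like the other libraries, the value of Psme2 there was -0.82 (edgeR adjusted p = 0.0119).

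Lists of genes that work with the proteasome differed in how far they followed it in melanoma-like cells. Of 24 genes for its assembly and associated factors, 9 were higher and 9 lower in melanoma-like than in macrophage-like cells, with a median of 0.09, where 47.8% of all genes were higher and 35.8% lower with a median of 0.23. The core maturation factor Pomp (-0.81 ± 0.09), the stress factor Nfe2l2 (-1.77 ± 0.10) and the deubiquitinase Usp14 (-0.68 ± 0.10) were lower. The chaperone Psmg3 (1.08 ± 0.12), the ubiquitin ligases Ube3a (1.25 ± 0.08) and Ube3c (1.42 ± 0.13), and Akirin2, which brings proteasomes into the nucleus (0.65 ± 0.09), were higher. Of 19 genes for ubiquitin supply, the p97 unfoldase and peptide trimming, 3 were higher and 10 lower (median -0.27). Among the lower was the polyubiquitin gene Ubb (-1.21 ± 0.07). Beside the same shares of all genes, 47.8% higher and 35.8% lower, this list leaned lower, as the members did. In cycling CD8 T cell-like cells 5 of the 24 assembly genes were higher and 0 lower, and 2 of the 19 ubiquitin genes were higher and 2 lower, where 15.1% of all genes were higher and 15.2% lower.

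Peptide loading and interferon genes, which include the partners of the pair in antigen presentation, were all lower in melanoma-like cells, 25 of 25 with a median of -3.76, where 35.8% of all genes were lower. Tap1, the peptide transporter, differed by -4.48 ± 0.25 and B2m, the light chain of MHC class I, by -4.36 ± 0.12. In CD8 T cell-like cells 18 of the 25 were lower and 1 higher (median -0.71), where 32.6% of all genes were lower and 36.1% higher. In monocyte-like cells 1 was lower and 8 higher (median 0.42), where 15.5% were lower and 13% higher. In cycling cells 17 of 23 were lower in CD8 T cell-like and 11 of 25 in macrophage-like cells, with 1 higher in each, where 15.2% and 18% of all genes were lower and 15.1% and 15.5% higher. The list also followed the pair over libraries: relative to the mean of 4, its median in macrophage-like cells was at -0.10, 0.61, 0.14 and -0.60 on the log2 scale in S1 to S4, beside -0.05, 0.53, 0.14 and -0.62 for Psme1 and 0.03, 0.22, 0.06 and -0.27 for the other 38 members. In melanoma-like cells the list was at -0.24, 0.48, 0.47 and -0.77, while the other 38 members stayed at 0.08, 0.04, -0.06 and -0.03.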

How the data were processed

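The deposited matrix holds raw UMI counts, as whole numbers, for every gene in every cell of the 4 libraries. The submitters' processing notes name Seurat 2.2.0, Cell Ranger and mm10 without their roles; settings, annotation and cell filters were not given in the sources used here. Library names show the group but no replicate number, so S1 to S4 are names only.

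Kept cells had 500 or more genes and no more than 10% mitochondrial UMIs. A class needed 3 of its markers and a lead of 15.0% over the next list, and cells with close lists entered no class. The macrophage and monocyte lists were the exception. Between them no lead was needed, and a cell was monocyte-like where the larger share of markers detected was that of the monocyte list. No doublet caller was run. Total UMIs per library ran from 23697078 to 33198317. Counts were summed per library and class and tested with edgeR 4.0.16 (R 4.3.3; TMM, default filter, robust quasi-likelihood, Benjamini-Hochberg over all genes at 0.05), with the library as a block between classes and between cycling and other cells. Classes needed 50 cells in every library. DESeq2 1.42.0, no filter, library totals, a stricter gate, thinned cells, equal cell numbers and each library left out were alternatives; library totals, cycling cells only and the 38 members without Psme2b and Psmc3ip were chosen after seeing the data. Ratios were tested with exact permutations of libraries between groups, and with exact sign flips within libraries between classes. The edgeR script was tested on simulated data.

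Members and gene lists were chosen with earlier results of these data known. Named in each comparison are the activators, the catalytic genes, and the up to 10 called members with the largest change, or else the 3 with the smallest p; further members illustrate a role's range. Coordinates come from GENCODE M21 and promoter sequences from RefSeq, both on GRCm38. Some genes of the lists are not reported here.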

Additional observations from a re-analysis of the deposited data

How the results depend on the processing

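Numbers of called members that moved beyond 1.5 times were as follows. Without the filter on low counts, 1 member was called between groups in melanoma-like cells, 3 were higher in CD8 T cell-like than in macrophage-like cells, and 2 were higher and 9 lower in monocyte-like cells. With library totals, 6 were higher in melanoma-like cells. The stricter gate gave 7 lower in monocyte-like cells, and thinned cells gave 7 higher and 2 lower there. Thinning left 5 higher and 1 lower in cycling CD8 T cell-like cells and 1 higher and 3 lower in cycling macrophage-like cells.

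Leaving out each library in turn gave 0 to 2 called between groups in melanoma-like and 0 to 3 in monocyte-like cells (Psme1, Psme2 and Psme2b without S3); the group left with 1 library is then assumed to vary like the other. It gave 3 to 5 higher and 17 to 27 lower for CD8 T cell-like cells, 1 to 3 higher and 4 to 8 lower for monocyte-like cells, 9 to 14 higher and 1 to 3 lower for cycling CD8 T cell-like cells, and 3 to 8 higher and 0 to 8 lower for cycling macrophage-like cells. The interaction in CD8 T cell-like cells ran from -0.48 to 0.0044 for Psme1 and from -0.82 to -0.079 for Psme2. Group differences changed sign for Psme1 in all kept cells without S2 (-0.07) and without S4 (-0.11), with a range up to 0.53. In melanoma-like cells they did so for Psme1 with DESeq2 (-0.00044), with equal cell numbers (-0.0082), without S2 (-0.13) and without S4 (-0.45; range up to 0.65), and for Psme2 without S2 (-0.09) and without S4 (-0.18; range up to 0.41). The causes were not tested. All alternatives of the 3 ratios kept within the spread between libraries. No paired analysis was possible because the library names carry no replicate number, so the replicate block was not run. Depth limits genes of few UMIs, such as Psmc3ip in monocyte-like cells.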
